A study of Mus musculus with 16 samples.

Results

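The genes described here are the constitutive proteasome genes. They were taken as every gene whose symbol is Psma, Psmb, Psmc or Psmd followed by a digit, apart from Psmb8, Psmb9 and Psmb10, which encode the interferon-inducible subunits of the immunoproteasome. The rule found 37 of the 18193 genes that had a probe set of their own, and each gene was read from its probe set with the highest mean over all arrays. The 37 genes comprised 14 subunits of the core particle and 17 of the regulatory particle. The other 6 were the base assembly chaperones Psmd5, Psmd9 and Psmd10, the core subunits Psma8 and Psmb11, known from testis and thymus, and Psmc3ip. Psmc3ip encodes a factor of meiotic recombination and is no proteasome subunit, so it entered by its symbol alone. In 34 of the 37 genes the mean lay above that of the median probe set, 4.37 in log2. Psma8, Psmb11 and Psmd7 lay below it, where signal is not set apart from background.

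RNA was measured on 16 arrays in AND T cells, CD4+ cells that carry a transgenic receptor for a moth cytochrome c peptide. Lymph node cells marked with CD90.1 had been transferred into B10.BR recipients aged 6 to 8 weeks, and cells positive for CD4 and CD90.1 were sorted out of subcutaneous lymph nodes 60 h later. Ii-rTA-, TIM+ recipients, titled no dox, made no antigen. Ii-rTA+, TIM+ recipients made the peptide in their dendritic cells under doxycycline, which they received from the day before transfer either to the day of transfer (transient antigen) or to the end (persistent antigen). Recipients of each kind were injected on the day before transfer with FGK45.5, an antibody that stimulates CD40 and so activates dendritic cells, or with PBS. The groups were no antigen with anti-CD40 (2 arrays) and with PBS (3 arrays), transient antigen with anti-CD40 (2 arrays) and with PBS (3 arrays), and persistent antigen with anti-CD40 (3 arrays) and with PBS (3 arrays). All recipients carried TIM, and all donor cells carried the AND receptor genes. Recipients without antigen thus differed from the others in genotype and in doxycycline as well as in antigen, and these cannot be told apart. Recipients with persistent antigen also received doxycycline for longer than those with transient antigen, so length of drug and of antigen cannot be told apart either. The labels do not say whether replicates came from separate animals, and the p-values below speak of the spread among these samples only, which may in part be technical. In RNA of a whole sorted population, fewer cells that express a gene and less RNA of it per cell cannot be told apart.

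The proteasome is the barrel-shaped protease that degrades proteins tagged with ubiquitin. Its core particle stacks rings of alpha subunits, which gate the entry, on rings of beta subunits, which hold the cutting sites inside. The regulatory particle caps the barrel: a base with a ring of ATPases unfolds the substrate, and a lid removes its ubiquitin. In mammalian cells the subunit genes are known to be induced together by the transcription factor NFE2L1 when proteasome activity runs short, and T cells that grow and divide after antigen contact are known to raise both the making and the breakdown of proteins.

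Promoters are shown for members of both particles that recur in the comparisons below, to set the sequences from which genes of one complex start side by side. They were picked among promoters that hold a motif marked below, so they do not show how common the motifs are among recurring members. The promoter of Psmd1, which recurs as well, held none of the marked motifs. RefSeq promoters of build GRCm38.p6, with 250 bases before and 50 after the start, were matched for 30 of the 37 genes, 32 promoters in all. Not in that table were Psma8, Psmb1, Psmb2, Psmb7, Psmc3, Psmd3 and Psmd7. Only the 250 bases before the start are printed, 5′ to 3′ on the strand of the gene. Capitals mark CCGGAAG, an ETS-type element, on the opposite strand in Psmc1 (chr12:100109952-100110201, plus strand), Psmd2 (chr16:20651402-20651651, plus strand) and Psmd12 (chr11:107479278-107479527, plus strand). They mark the palindrome of nuclear respiratory factor NRF1, which is another protein than NFE2L1, in Psma4 (chr9:54950609-54950858, plus strand). In Psmb5 (chr14:54617996-54618245, minus strand) and Psmb6 (chr11:70525107-70525356, plus strand) they mark TGACNNNGC, the core of the antioxidant response element, which NFE2L1 is known to bind.
Psmc1: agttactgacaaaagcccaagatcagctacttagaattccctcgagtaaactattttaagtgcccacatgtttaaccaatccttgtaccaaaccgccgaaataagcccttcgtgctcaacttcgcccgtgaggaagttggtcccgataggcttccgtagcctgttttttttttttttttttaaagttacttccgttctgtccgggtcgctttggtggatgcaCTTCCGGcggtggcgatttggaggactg
Psmd2: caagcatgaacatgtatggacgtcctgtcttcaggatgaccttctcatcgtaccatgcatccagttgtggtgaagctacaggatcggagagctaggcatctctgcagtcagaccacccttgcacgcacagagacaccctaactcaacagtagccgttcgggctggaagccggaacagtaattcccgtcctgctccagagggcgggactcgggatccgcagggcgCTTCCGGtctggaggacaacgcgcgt
Psmd12: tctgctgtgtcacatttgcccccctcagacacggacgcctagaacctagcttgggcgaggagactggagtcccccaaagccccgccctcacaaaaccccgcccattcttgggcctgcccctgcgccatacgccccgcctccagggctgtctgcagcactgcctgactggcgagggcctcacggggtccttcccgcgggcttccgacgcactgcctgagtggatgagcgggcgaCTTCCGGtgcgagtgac
Psma4: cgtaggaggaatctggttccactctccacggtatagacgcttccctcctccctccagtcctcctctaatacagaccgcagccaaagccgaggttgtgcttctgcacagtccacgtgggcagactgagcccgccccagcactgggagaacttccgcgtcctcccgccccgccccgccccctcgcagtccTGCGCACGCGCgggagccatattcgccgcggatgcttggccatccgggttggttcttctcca
Psmb5: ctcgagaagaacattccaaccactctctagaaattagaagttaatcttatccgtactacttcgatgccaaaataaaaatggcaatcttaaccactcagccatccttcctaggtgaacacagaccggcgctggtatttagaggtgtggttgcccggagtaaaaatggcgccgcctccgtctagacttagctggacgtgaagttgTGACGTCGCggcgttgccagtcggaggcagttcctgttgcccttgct
Psmb6: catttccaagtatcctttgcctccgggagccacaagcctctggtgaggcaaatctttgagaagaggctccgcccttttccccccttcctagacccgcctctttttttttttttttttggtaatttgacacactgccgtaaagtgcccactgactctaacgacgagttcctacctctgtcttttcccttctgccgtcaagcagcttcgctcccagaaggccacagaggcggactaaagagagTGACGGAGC
The CCGGAAG matches began 28, 26 and 17 bases before the start in Psmc1, Psmd2 and Psmd12, and the NRF1 motif 62 bases before it in Psma4. The TGACNNNGC matches began 47 bases before it in Psmb5 and 9 bases before it in Psmb6. Over both strands of the 300 bases, CCGGAAG stood in 12 of the 32 member promoters (37.5%), against 8.86% of all 32851 promoters. The NRF1 motif stood in 4 (12.5%, against 2.44% of all), TGACNNNGC in 5 (15.6%, against 12.4%) and GGGCGG, the GC box, in 18 (56.2%, against 35.7%). CCAAT stood in 13 (40.6%, against 37.4%), TGACGT, the CRE core, in 4 (12.5%, against 7.51%), CACGTG, an E box, in 2 (6.25%, against 7.15%) and TGACTCA, an AP-1 element, in 1 (3.12%, against 5.2%). In Psmb5 the marked stretch holds TGACGT as well, so one stretch counts for both motifs. These are matches of letters in a window and were given no test.

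The arrays carried the markers of the labelled cells. All 7 measured T cell markers lay above the median probe set, with a mean log2 level of 8.93 to 9.85 over the 16 arrays. Of the markers of other cell types 2 of 4 for B cells, 4 of 6 for dendritic cells and macrophages, 2 of 4 for NK and CD8 T cells, 1 of 4 for granulocytes, 0 of 2 for erythrocytes and 2 of 4 for stroma and endothelium did so. Summed B cell marker intensity ran from 74.4 to 194 in the antigen groups and from 141 to 318 without antigen, against 6855 to 10458 for the summed T cell markers. The summed dendritic cell and macrophage markers ran from 126 to 261 over all arrays, and those of NK and CD8 T cells from 64.4 to 154. Genes of dividing cells differed between the groups. The mean log2 level of the 9 measured ones was 6.75 to 8.59 without antigen and anti-CD40 and 6.78 to 8.04 without antigen and PBS. It was 9.67 to 10.11 under transient antigen with anti-CD40, 7.60 to 8.80 under transient antigen with PBS, 9.86 to 10.14 under persistent antigen with anti-CD40 and 9.51 to 10.21 under persistent antigen with PBS. Arrays with the same replicate number deviated together from their group means, so each comparison was read from 2 fits of limma, with and without the replicate number as a block. The labels also give array numbers, which fall into 4 runs of consecutive numbers. Replicates 1 and 3 lay in 1 run each, while in replicate 2 the arrays without antigen lay in one run and all antigen arrays in another, so that run and antigen cannot be told apart within replicate 2. Of the 37 genes 31 were lower in replicate 2 than in replicate 1, with a median difference of −0.33, and the block lowered the median residual SD of the members to 0.207, against 0.362 without it. Differences are log2 differences of intensity + 1 with their standard errors, and a gene was called at an adjusted p under 0.05 over all 18193 genes.

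**Figure D1:**
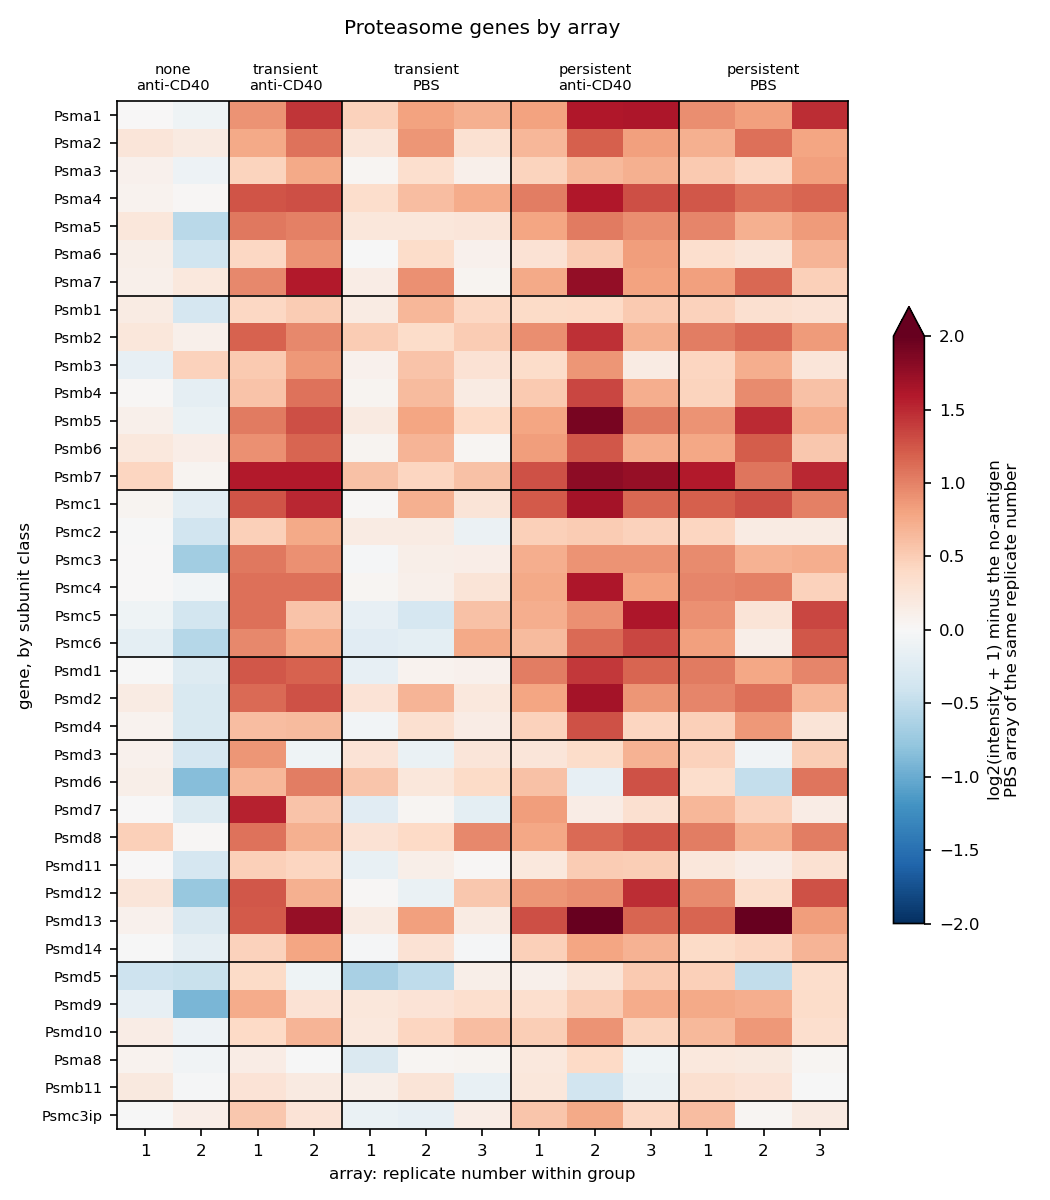
Each cell is the log2(intensity + 1) of 1 gene (rows, grouped by subunit class) on 1 array (columns, grouped by antigen and treatment) minus the no-antigen PBS array of the same replicate number; the arrow on the colour bar marks values above 2. The columns of persistent antigen and of transient antigen with anti-CD40 are mostly red, with array medians over the 37 genes of 0.67 to 0.93. Transient antigen with PBS (0.09 to 0.32) and no antigen with anti-CD40 (−0.22 to 0.07) are mostly paler. Their single cells run from −0.91 (Psmd9, no antigen with anti-CD40, replicate 2) to 0.96 (Psmd8, transient antigen with PBS, replicate 3).

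The first comparison set persistent antigen against no antigen in PBS-treated recipients, which differed in genotype and doxycycline as well. All 37 genes were higher on average under persistent antigen, with a median difference of 0.73 against −0.03 over all genes. Without the block 3 of the 37 were called higher, where 2.2% of all genes were: Psma2, Psmc1 and Psmd8. With the replicate block 25 were called higher, against a background of 9.93% of all genes, and 0 lower, against 6.79%. Among genes above the median probe set the background with the block was 15.4%, and 25 of 34 members were called. Within replicates 1, 2 and 3 the median over the members was 0.76, 0.72 and 0.67, of which the values of replicates 1 and 3 each came from within 1 run of array numbers. In 33 of the 37 genes every replicate number was higher under persistent antigen, as in 20.5% of all genes. In 19 of the 37 all persistent arrays lay above all arrays without antigen, as in 8.4% of all genes. The count without the block was 0 without no-antigen PBS replicate 2 or 3 or persistent PBS replicate 1 or 3, and 1 without no-antigen PBS replicate 1. With the block it stayed between 20 and 23. All 9 dividing-cell genes were called higher here too with the block (median 2.55), and their part in the result was not tested.

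In the core particle 12 of the 14 subunits rose with the block, 6 of 7 in each ring, with a median of 0.85. The largest difference was that of Psmb7, which carries the trypsin-like site. Its log2 level was 10.05, 7.03 and 9.30 on replicates 1, 2 and 3 under persistent antigen, against 8.47, 5.96 and 7.79 without antigen. Replicate 2 was low in both groups, so the groups overlapped, while every replicate number was higher under persistent antigen. The difference was 1.39 ± 0.18 (adjusted p = 1.1e-05) with the block, a fold of 2.62, and was not called without it (standard error 1.03, adjusted p = 0.69). Psmb5, the subunit with the chymotrypsin-like site, stood at 9.27, 8.77 and 9.33 under persistent antigen, against 8.38, 7.27 and 8.61 without antigen. These groups did not overlap, and the difference was 1.04 ± 0.21 (adjusted p = 0.0012) with the block. Psmb6, with the caspase-like site, stood at 9.20, 9.12 and 9.78 under persistent antigen, against 8.42, 7.92 and 9.24 without antigen. Its highest array without antigen, replicate 3, lay above persistent replicates 1 and 2, and the difference was 0.84 ± 0.16 (adjusted p = 0.0010) with the block. Psmb2, Psmb3 and Psmb4, beta subunits without a cutting site, rose by 1.0 ± 0.17, 0.47 ± 0.15 and 0.66 ± 0.17 with the block. Psmb1, the other such subunit, differed by 0.36 ± 0.17 (adjusted p = 0.17) with the block and was not called.

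**Figure D2:**
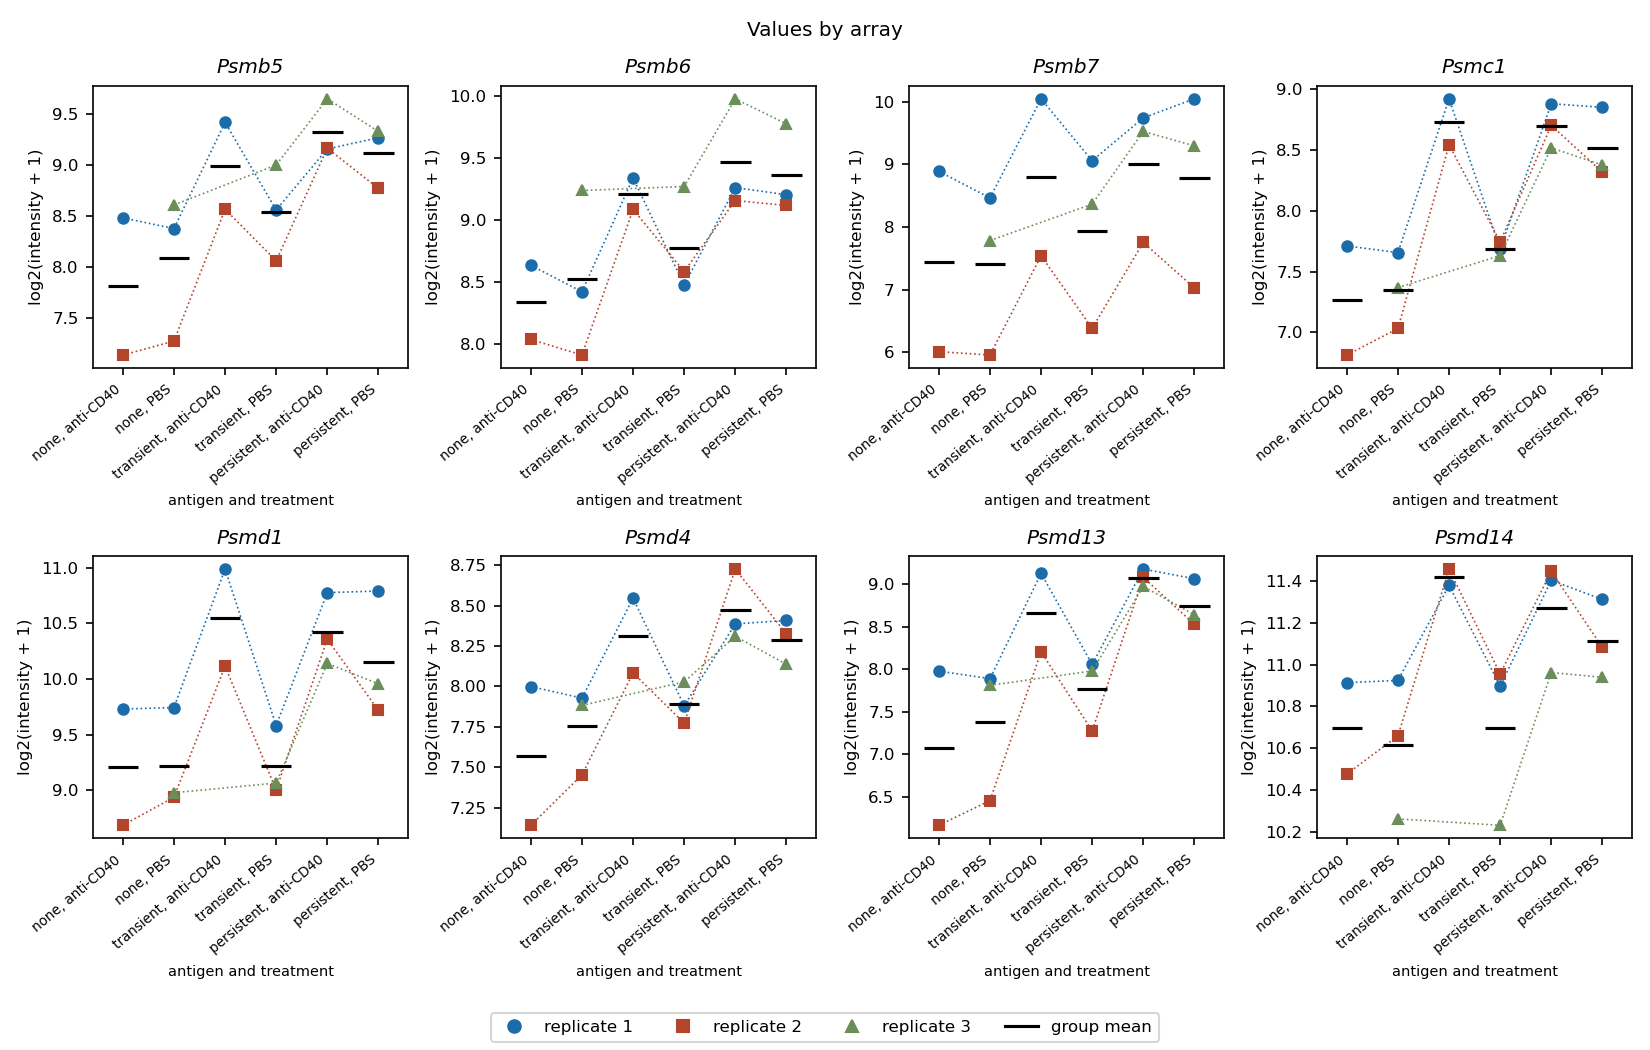
Points are log2(intensity + 1) of single arrays by antigen and treatment for the catalytic subunits Psmb5, Psmb6 and Psmb7, the ATPase Psmc1, the base subunits Psmd1 and Psmd4 and the lid subunits Psmd13 and Psmd14; symbols give the replicate number, dotted lines join arrays of the same number, and bars are group means, with an axis of its own for each gene that does not start at 0. Psmb7 replicate 2 lies lowest in every group, from 5.96 to 7.76.

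In the alpha ring 6 of 7 subunits rose with the block. Psma4 stood at 9.19, 8.08 and 8.81 under persistent antigen, against 7.94, 6.98 and 7.64 without antigen. The groups did not overlap, although replicate 2 was lowest in both, and the difference was 1.17 ± 0.16 (adjusted p = 2.8e-05) with the block. Psma2 stood at 10.48, 10.44 and 10.45 under persistent antigen, against 9.77, 9.35 and 9.67 without antigen. It was called in both fits, at 0.86 ± 0.21 (adjusted p = 0.033) without the block and 0.86 ± 0.15 (adjusted p = 0.00043) with it. The persistent arrays of Psma2 spanned 10.44 to 10.48, above every array without antigen. Psma1, Psma5, Psma7 and Psma3 rose by 1.07 ± 0.19, 0.85 ± 0.17, 0.82 ± 0.19 and 0.58 ± 0.14 with the block. Psma6 was the alpha subunit not called, at 0.42 ± 0.18 (adjusted p = 0.12) with the block.

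In the regulatory particle 11 of the 17 subunits rose with the block, with a median of 0.79. Of the 6 ATPases of the base, which unfold the substrate, 5 rose. Psmc1 stood at 8.85, 8.32 and 8.38 under persistent antigen, against 7.66, 7.03 and 7.37 without antigen. The groups did not overlap, and the means were 8.52 ± 0.29 and 7.35 ± 0.31 (SD, n = 3 each). The difference was 1.16 ± 0.27 (adjusted p = 0.029) without the block and had an adjusted p of 7e-05 with it, a fold of 2.24. Psmc5, Psmc4, Psmc3 and Psmc6 rose by 0.83 ± 0.20, 0.82 ± 0.19, 0.79 ± 0.17 and 0.73 ± 0.21 with the block. Psmc2 was not called, at 0.25 ± 0.15 (adjusted p = 0.29) with the block. Among the base subunits that are no ATPases, the scaffold subunits Psmd1 and Psmd2 rose by 0.93 ± 0.15 and 0.91 ± 0.19 with the block. Psmd4, a ubiquitin receptor, stood at 8.41, 8.33 and 8.14 under persistent antigen, against 7.93, 7.45 and 7.88 without antigen. Its groups did not overlap, yet the difference of 0.54 ± 0.20 missed the threshold (adjusted p = 0.071 with the block).

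Of the 8 lid subunits 4 rose with the block. A difference within the lid was not tested. Psmd13, a structural subunit of the lid, stood at 9.06, 8.53 and 8.64 under persistent antigen, against 7.89, 6.46 and 7.81 without antigen. All 3 persistent arrays lay above all arrays without antigen, and replicate 2 was the lowest of both groups. The difference was 1.36 ± 0.25 (adjusted p = 0.00061) with the block and had an adjusted p of 0.17 without it. Psmd8, another structural subunit, stood at 7.16, 7.04 and 7.14 under persistent antigen, against 6.14, 6.32 and 6.11 without antigen. Its arrays kept close within each group and did not overlap between them, and it was called without the block, at 0.92 ± 0.22 (adjusted p = 0.030), as well as with it (adjusted p = 0.0011). Psmd14 is the deubiquitinase that takes ubiquitin off the substrate. It stood at 11.31, 11.08 and 10.94 under persistent antigen, against 10.92, 10.66 and 10.26 without antigen, with persistent replicate 3 only just above the highest array without antigen. Its difference was 0.49 ± 0.14 (adjusted p = 0.022) with the block. Psmd12 rose by 0.85 ± 0.20 with the block. Psmd7, the inactive partner of Psmd14, differed by 0.42 ± 0.18 at a level below the median probe set. Psmd6, Psmd3 and Psmd11 differed by 0.31 ± 0.27, 0.29 ± 0.19 and 0.23 ± 0.14, with adjusted p of 0.51, 0.36 and 0.35 with the block. Psmd6 and Psmd11 each had another probe set that rose in this comparison, by 1.03 ± 0.22 and 0.86 ± 0.19.

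Of the chaperones that assemble the base, Psmd9 and Psmd10 rose by 0.62 ± 0.19 and 0.62 ± 0.18 with the block, while Psmd5 differed by 0.11 ± 0.21 (adjusted p = 0.8). Psmd5 was highest in replicate 2 without antigen, at 8.29, unlike most members. Psma8, Psmb11 and Psmc3ip were not called, at 0.14 ± 0.13, 0.20 ± 0.13 and 0.28 ± 0.17 with the block. The levels of Psma8 and Psmb11 ran from 3.04 to 3.86 and from 2.85 to 3.55 over all 16 arrays, in the range of probe sets without clear signal.

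**Figure D3:**
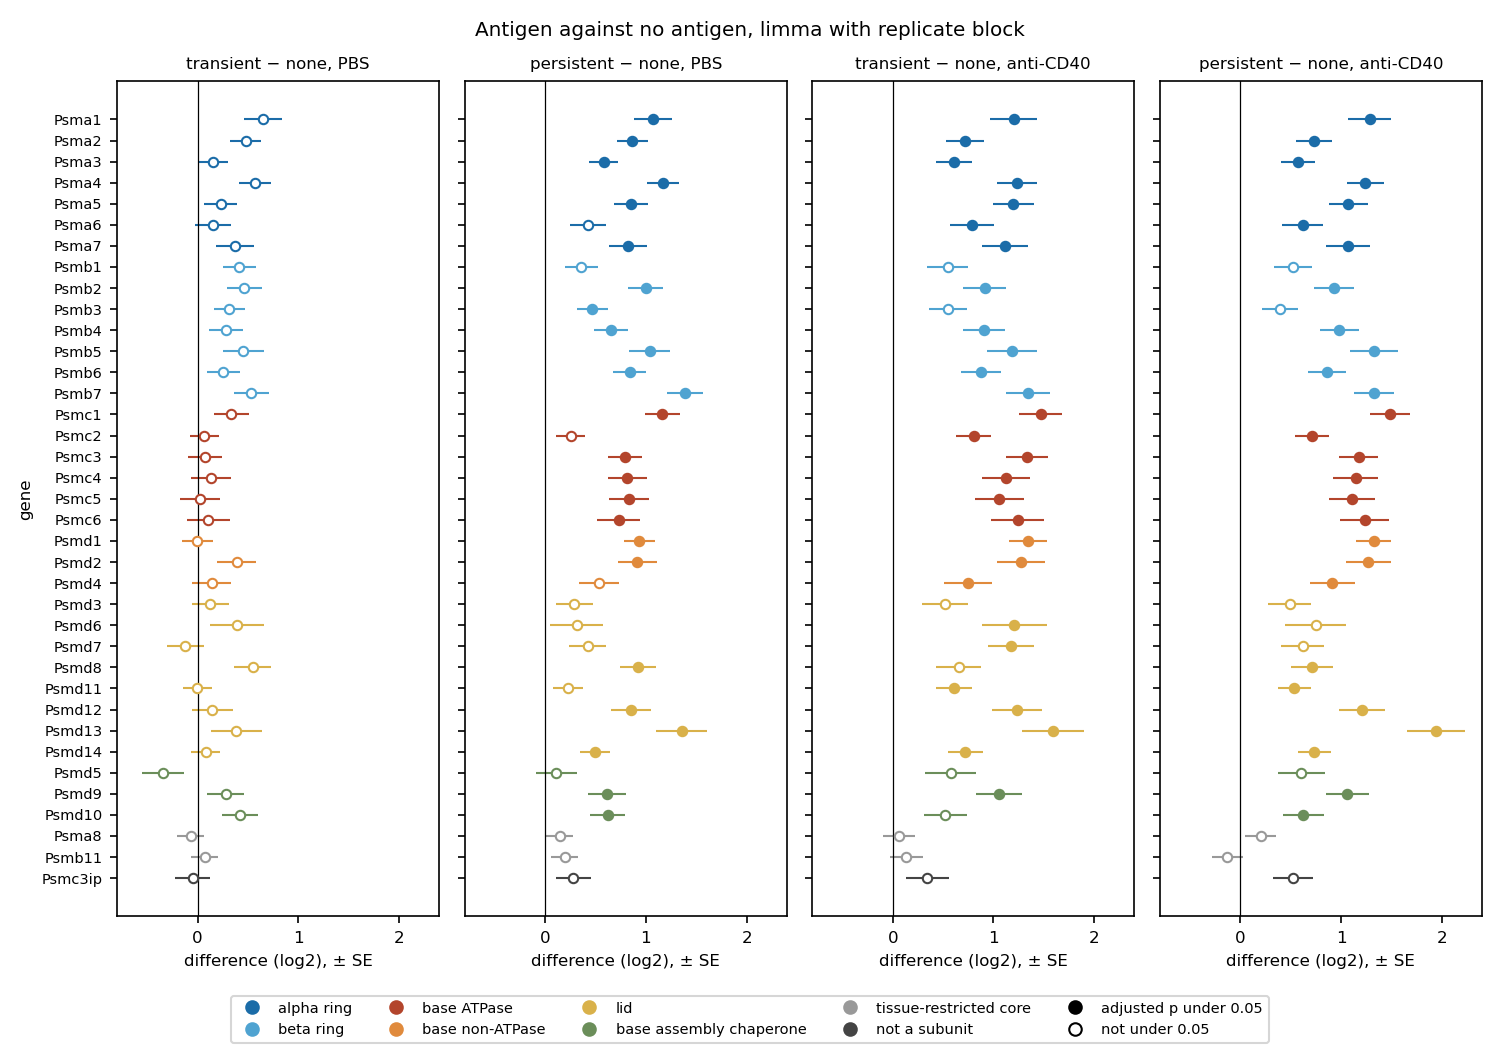
Points are log2 differences ± SE of the 37 genes (rows, coloured by subunit class) from limma with the replicate block, for transient and persistent antigen against no antigen with PBS (left panels) and with anti-CD40 (right panels); filled points have an adjusted p under 0.05. No point is filled for transient antigen with PBS, and 25, 28 and 28 are filled in the other panels, all to the right of 0.

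Transient antigen was set against the same no-antigen arrays with PBS, so that these comparisons share their controls. No member was called in either fit, against a background of 0.0934% of all genes called higher without the block and 2.02% with it. At an unadjusted p under 0.05 limma gave 2 members without the block, where 4.64% of all genes passed, and 9 with it, where 15.1% did. The median difference was 0.23 over the members, against 0.03 over all genes, and 0.09, 0.32 and 0.24 within replicates 1, 2 and 3. In 21 of 37 genes every replicate number was higher under transient antigen, as in 23.6% of all genes. Core subunits had a median of 0.39, with 14 of 14 above 0, and regulatory subunits one of 0.13, with 14 of 17 above 0. The smallest p-values belonged to Psma4, at 0.57 ± 0.16 (adjusted p = 0.064) with the block, and Psma1, at 0.65 ± 0.19 (adjusted p = 0.070) with the block. Psma4 stood at 8.29, 7.60 and 8.39 under transient antigen, against 7.94, 6.98 and 7.64 without antigen, and the groups overlapped. Psmb7 differed by 0.53 ± 0.18 and Psmd8 by 0.55 ± 0.18, while the ATPases ranged from 0.03 (Psmc5) to 0.33 (Psmc1). Psmd1 differed by 0.00 and Psmd11 by 0.00, and Psmd5 had the lowest value of the 37, −0.35 ± 0.21. Of the 9 dividing-cell genes 3 were called higher with the block (median 0.97), and their part in these values was not tested.

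Persistent antigen set directly against transient antigen, both with PBS, gave 0 calls without the block, against a background of 0.605% of all genes called higher, and 5 members had an unadjusted p under 0.05, where 11.2% of all genes did. With the block 11 members were called higher, against 5.99% of all genes, and 0 lower, against 5.44%. They were 7 regulatory and 4 core subunits. Among genes above the median probe set 9.1% were called higher with the block, and 11 of 34 members were. Psmd1 stood at 10.79, 9.72 and 9.96 under persistent antigen, against 9.58, 9.0 and 9.07 under transient antigen and 9.74, 8.94 and 8.98 without antigen. Every persistent array lay above every transient one, and replicate 1 was the highest of each group. The difference between persistent and transient antigen was 0.94 ± 0.15 (adjusted p = 0.00031) with the block. Psmd13 stood at 8.06, 7.28 and 7.98 under transient antigen, below all 3 of its persistent arrays given above, and differed by 0.97 ± 0.25 (adjusted p = 0.015) with the block. Psmb7 stood at 9.06, 6.39 and 8.37 under transient antigen, overlapping its persistent arrays, and differed by 0.85 ± 0.18 (adjusted p = 0.0029) with the block. Psmc1 stood at 7.68, 7.74 and 7.63 under transient antigen, below all persistent arrays, and differed by 0.83 ± 0.17 (adjusted p = 0.0033) with the block. The ATPases Psmc3, Psmc4 and Psmc5, the lid subunit Psmd12 and the core subunits Psma4, Psma5 and Psmb6 rose by 0.59 to 0.81 with the block. The median over the members was 0.43, against −0.05 over all genes. In 11 members all persistent arrays lay above all transient ones, as in 6.06% of all genes. The blocked count was 3 without transient PBS replicate 1, 7 without transient PBS replicate 2 or persistent PBS replicate 3, and 4 without persistent PBS replicate 1. All 9 dividing-cell genes were called higher here with the block, and their part in the result was not tested.

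With anti-CD40 both antigen regimes lay above no antigen, and they share the same 2 arrays without antigen. Under transient antigen all 37 genes were higher, with a median of 0.91, against −0.01 over all genes. Without the block 0 members were called, against a background of 0.423% of all genes called higher, though 23 had an unadjusted p under 0.05, where 10.5% of all genes did. With the block 28 were called higher, against 10.5% of all genes, and 0 lower, against 3.48%. Among genes above the median probe set 16.5% were called higher with the block, and 27 of 34 members were. Under persistent antigen 36 of 37 were higher, with a median of 0.91, against −0.03 over all genes. Without the block 3 members were called higher, against 1.64% of all genes, namely Psmc1, Psmc3 and Psma7. With the block 28 were called higher, against 10.9% of all genes, and 0 lower, against 5.5%. Among genes above the median probe set 17.2% were called higher with the block, and 28 of 34 members were. The blocked counts rested partly on single arrays: without no-antigen anti-CD40 replicate 2 they were 8 for transient and 13 for persistent antigen, and without transient anti-CD40 replicate 1 the first was 17. Without the block the counts were 7 and 12 without no-antigen anti-CD40 replicate 1, and leaving out no-antigen anti-CD40 replicate 2 or any persistent anti-CD40 array gave 0 for persistent antigen. The median over the members in replicates 1 and 2 was 0.79 and 1.13 for transient, and 0.56 and 1.28 for persistent antigen. Only the values of replicate 1 came from within 1 run of array numbers. In replicate 2, where the values were larger, run and antigen cannot be told apart. All transient arrays lay above both arrays without antigen in 30 of 37 members, as in 15.8% of all genes. All persistent arrays did so in 27 of 37, as in 13.5% of all genes. All 9 dividing-cell genes were called higher in both comparisons with the block, and their part in the result was not tested.

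Psmd13 stood at 7.98 and 6.17 on replicates 1 and 2 without antigen, 9.12 and 8.20 under transient and 9.17, 9.08 and 8.97 under persistent antigen, all with anti-CD40. Replicate 2 without antigen was the lowest Psmd13 value of all 16 arrays, and neither antigen group overlapped the arrays without antigen. With the block the difference from no antigen was 1.59 ± 0.31 (adjusted p = 0.0014) for transient and 1.95 ± 0.29 (adjusted p = 8.1e-05) for persistent antigen, a fold of 3.85 for the second. Psmc1 stood at 7.71 and 6.81 without antigen, 8.92 and 8.54 under transient and 8.88, 8.70 and 8.52 under persistent antigen. Every array with antigen lay above both without it. Its difference was 1.47 ± 0.21 (adjusted p = 0.00011) for transient and 1.48 ± 0.20 (adjusted p = 2.9e-05) for persistent antigen with the block, and 1.44 ± 0.31 (adjusted p = 0.025) for persistent antigen without it.

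In the core all 3 catalytic subunits rose in both comparisons with the block. Psmb7 stood at 8.89 and 6.01 without antigen, 10.05 and 7.54 under transient and 9.74, 7.76 and 9.53 under persistent antigen, with replicate 2 again lowest in each group. Its differences were 1.34 ± 0.21 (adjusted p = 0.00028) and 1.33 ± 0.20 (adjusted p = 0.00011) with the block. Psmb5 stood at 8.48 and 7.14 without antigen, 9.42 and 8.57 under transient and 9.16, 9.17 and 9.65 under persistent antigen. The antigen arrays of Psmb5 all lay above those without antigen, by 1.18 ± 0.25 for transient and 1.33 ± 0.24 (adjusted p = 0.00051) for persistent antigen with the block. Psmb6 stood at 8.64 and 8.04 without antigen, 9.34 and 9.09 under transient and 9.26, 9.16 and 9.98 under persistent antigen, and rose by 0.87 ± 0.20 and 0.86 ± 0.19 with the block. Psma7, an alpha subunit, stood at 7.76 and 7.31 without antigen, 8.62 and 8.68 under transient and 8.42, 8.85 and 8.69 under persistent antigen. Its difference was 1.12 ± 0.27 (adjusted p = 0.045) for persistent antigen without the block. All 7 alpha subunits rose in both comparisons with the block, from 0.61 (Psma3) to 1.24 (Psma4) for transient and from 0.57 (Psma3) to 1.28 (Psma1) for persistent antigen. Psmb1 and Psmb3 were the core subunits not called in either comparison, at 0.55 ± 0.20 and 0.55 ± 0.19 for transient and 0.52 ± 0.19 and 0.40 ± 0.18 for persistent antigen.

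In the regulatory particle all 6 ATPases and all 3 other base subunits rose in both comparisons with the block. Psmd1 stood at 9.73 and 8.69 without antigen, 10.99 and 10.12 under transient and 10.78, 10.36 and 10.14 under persistent antigen. Its differences were 1.34 ± 0.19 (adjusted p = 7.4e-05) and 1.32 ± 0.17 (adjusted p = 2.3e-05) with the block. Psmc3 stood at 7.79 and 6.94 without antigen, 8.84 and 8.56 under transient and 8.51, 8.53 and 8.51 under persistent antigen. All 5 antigen arrays of Psmc3 lay between 8.51 and 8.84, above both arrays without antigen, and persistent antigen differed by 1.15 ± 0.27 (adjusted p = 0.037) without the block. Psmd4, the ubiquitin receptor, stood at 8.0 and 7.14 without antigen, 8.55 and 8.08 under transient and 8.39, 8.73 and 8.31 under persistent antigen. Psmd4 rose by 0.75 ± 0.24 (adjusted p = 0.044) and 0.91 ± 0.22 (adjusted p = 0.0074) with the block. Psmd14, the deubiquitinase, stood at 10.91 and 10.48 without antigen, 11.38 and 11.46 under transient and 11.40, 11.44 and 10.96 under persistent antigen. Replicate 3 of Psmd14 was the lowest antigen array and still above both arrays without antigen, and the differences were 0.72 ± 0.18 and 0.74 ± 0.17, both called with the block. Of the lid 6 of 8 subunits rose under transient and 5 of 8 under persistent antigen. Psmd6 and Psmd7 were called for transient antigen (1.21 ± 0.32 and 1.18 ± 0.23) but not for persistent antigen (0.75 ± 0.30 and 0.62 ± 0.21). Psmd8 was called for persistent antigen (0.71 ± 0.21) and not for transient antigen (0.66 ± 0.22, adjusted p = 0.056), and Psmd3 for neither. Psmd9 rose in both, Psmd10 for persistent antigen, Psmd5 in neither, and Psma8, Psmb11 and Psmc3ip in neither. Whether these calls differ between the regimes is read from the direct comparison that follows.

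Persistent antigen set against transient antigen with anti-CD40 gave 0 calls in either fit, against a background of 0.0055% of all genes called higher without the block and 0.055% with it. At an unadjusted p under 0.05 limma gave 0 members without the block, where 1.95% of all genes passed, and 1 with it, where 6.11% did. The median over the members was 0.00, with 18 of 37 above 0, and −0.20 and 0.21 within replicates 1 and 2. The smallest p-values were those of Psmd7, at −0.56 ± 0.21 (adjusted p = 0.78), and Psmb11, at −0.26 ± 0.15 (adjusted p = 0.85), both with the block and both at levels below the median probe set. Psmd13 differed by 0.36 ± 0.29, and the 14 core subunits by −0.17 to 0.14.

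Anti-CD40 was set against PBS within each antigen regime to ask what activation of the dendritic cells changed. Without antigen 0 members were called, against a background of 0% of all genes called higher without the block and 0.0055% with it, and limma gave 0 and 1 members at an unadjusted p under 0.05, where 1.74% and 5.3% of all genes passed. The members' median was −0.09, and it was 0.07 in replicate 1 and −0.22 in replicate 2. The smallest p-values were those of Psmd9 (−0.53 ± 0.21, adjusted p = 0.9) and Psmc3 (−0.34 ± 0.19, adjusted p = 0.9) with the block. Under persistent antigen 0 members were called in either fit, where 0% of all genes were, and limma gave 0 and 1 members at an unadjusted p under 0.05 without and with the block, where 0.605% and 2.66% of all genes passed. There the median was 0.18, and −0.08, 0.38 and 0.17 within replicates 1, 2 and 3. The smallest p-values were those of Psmb11 (−0.29 ± 0.13, adjusted p = 1) and Psmd1 (0.27 ± 0.15, adjusted p = 1) with the block.

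Under transient antigen all 37 members were higher on average with anti-CD40 than with PBS, with a median of 0.60, against −0.03 over all genes. Without the block 0 members were called, against 0.522% of all genes called higher, and 11 had an unadjusted p under 0.05, where 9.29% of all genes did. With the block 16 were called higher, against 7.59% of all genes, and 0 lower, against 2.92%. Among genes above the median probe set 11.7% were called higher with the block, and 15 of 34 members were. The 16 were 11 of the 17 regulatory subunits and 5 of the 14 core subunits. At an unadjusted p under 0.05 the block gave 28 members, where 20.2% of all genes passed. The medians were 0.91 for the regulatory and 0.58 for the core particle, and 1.05 against 0.60 in replicate 1 and 0.79 against 0.51 in replicate 2. The difference between the particles was not tested. Both anti-CD40 arrays lay above all PBS arrays in 22 of 37 members, as in 10.5% of all genes. The blocked count was 3 without transient anti-CD40 replicate 1, 8 without its replicate 2 and 7 without transient PBS replicate 1. Without the block it was 1 without transient anti-CD40 replicate 2. Of the 9 dividing-cell genes 8 were called higher with the block (median 1.66), and their part in the result was not tested.

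Psmd1 stood at 10.99 and 10.12 with anti-CD40, against 9.58, 9.0 and 9.07 with PBS, under transient antigen. Both anti-CD40 arrays lay above all 3 PBS arrays, and the difference was 1.22 ± 0.17 (adjusted p = 0.00015) with the block, a fold of 2.34. Psmd7, the partner of the deubiquitinase, stood at 5.61 and 4.51 with anti-CD40, against 3.85, 3.99 and 3.47 with PBS. Its replicate 1 with anti-CD40 was the highest of all 16 arrays and the PBS arrays lay below the median probe set, so a fold is uncertain. The difference was 1.12 ± 0.21 (adjusted p = 0.0016) with the block. Psmb7 stood at 10.05 and 7.54 with anti-CD40, against 9.06, 6.39 and 8.37 with PBS. The groups overlapped while both replicate numbers were higher with anti-CD40, and the difference was 1.09 ± 0.20 (adjusted p = 0.0013) with the block. Without the block this value turned to −0.40 without transient anti-CD40 replicate 1. Psmc5, an ATPase, stood at 8.96 and 7.70 with anti-CD40, against 7.70, 6.79 and 7.65 with PBS, with replicate 2 lowest in both groups. It differed by 1.01 ± 0.23 (adjusted p = 0.0059) with the block. Psmc1, Psmc6, Psmc3 and Psmc4 rose by 1.0, 0.93, 0.92 and 0.91 with the block, and Psmc2 was the ATPase not called (0.51 ± 0.17, adjusted p = 0.059). Psmd12, Psmd13 and Psmd14 of the lid and Psmd2 of the base rose by 0.98, 0.95, 0.56 and 0.73 with the block. In the core Psma5, Psma7, Psma4 and Psmb6 rose by 0.81, 0.78, 0.73 and 0.70 with the block. Psmb5 and Psmd4 were not called, at 0.64 ± 0.24 and 0.41 ± 0.22. None of the 3 base assembly chaperones was called, at 0.61 ± 0.24 (Psmd5), 0.24 ± 0.21 (Psmd9) and 0.09 ± 0.20 (Psmd10). The other 15 members not called differed by 0.05 (Psmb1) to 0.63 (Psmd6).

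**Figure D4:**
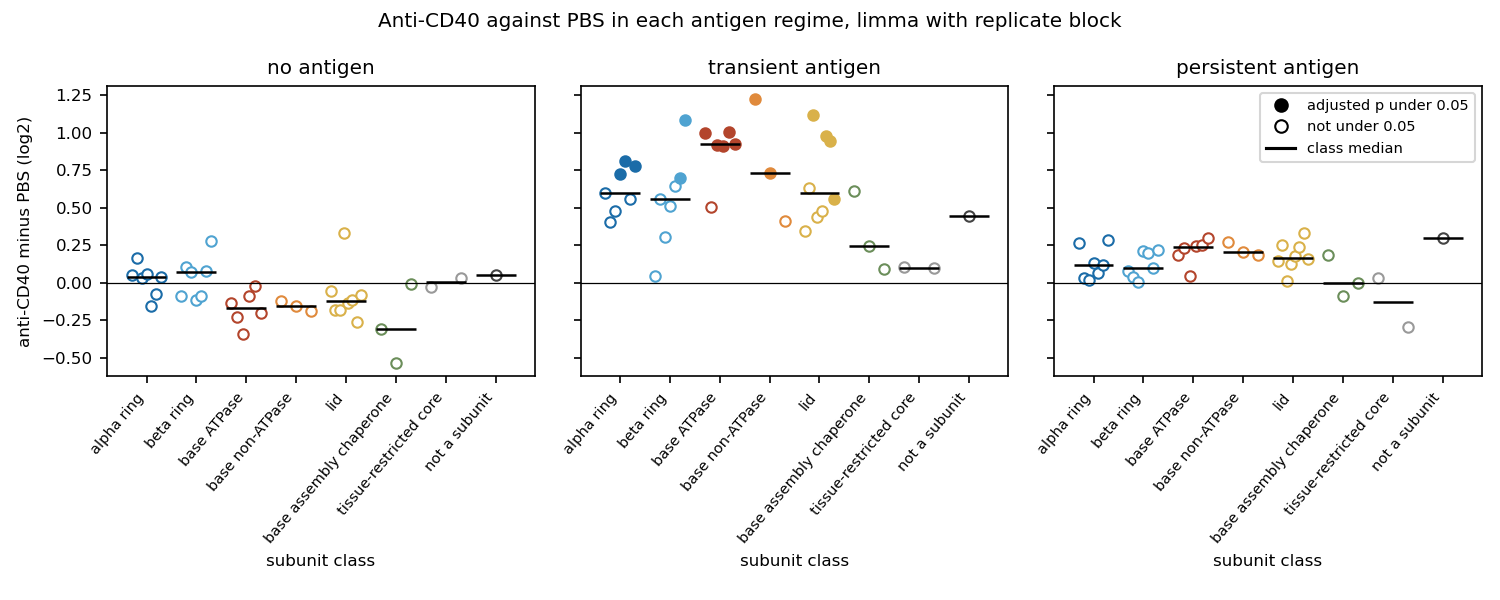
Points are the log2 differences between anti-CD40 and PBS of the 37 genes by subunit class, without antigen (left), under transient (middle) and under persistent antigen (right), from limma with the replicate block; filled points have an adjusted p under 0.05 and bars are class medians. In the middle panel the base ATPases sit around a median of 0.92 and 16 points are filled, and no point is filled in the other panels.

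The effects of anti-CD40 were then set against each other. With the block 5 members had a larger effect under transient antigen than without antigen, against a background of 3.09% of all genes: Psmd1 at 1.35 ± 0.24 (adjusted p = 0.0049), Psmd7 at 1.30 ± 0.29 (adjusted p = 0.018), Psmc3 at 1.26 ± 0.27 (adjusted p = 0.013), Psmc1 at 1.14 ± 0.27 (adjusted p = 0.026) and Psma5 at 0.97 ± 0.26 (adjusted p = 0.046). The mean of Psmd7 lay above the median probe set only under transient antigen with anti-CD40 and below it in the other 5 groups. Signal below that level is not set apart from background, so the size of its difference is not exact. Among genes above the median probe set 4.87% were called higher with the block, and 4 of 34 members were. Without the block 0 members were called, where 0% of all genes were called higher. At an unadjusted p under 0.05 limma gave 7 members without the block, where 4.92% of all genes passed. The blocked count ranged from 1, without no-antigen anti-CD40 replicate 2 or transient anti-CD40 replicate 1, to 12, without no-antigen anti-CD40 replicate 1. It was 2 without transient PBS replicate 1 and 3 without no-antigen PBS replicate 1, transient PBS replicate 3 or transient anti-CD40 replicate 2. The effect of anti-CD40 was smaller under persistent than under transient antigen for Psmd1 alone with the block, at −0.96 ± 0.23 (adjusted p = 0.039), where 1.52% of all genes were called lower. Among genes above the median probe set 2.39% were called lower with the block, and 1 of 34 members was. Without the block no member was called in this comparison, where 0% of all genes were called lower, and 2 had an unadjusted p under 0.05, where 3.45% of all genes did. Leaving out any one of 7 arrays ended the call of Psmd1: transient PBS replicate 1 or 3, transient anti-CD40 replicate 1, persistent PBS replicate 1 or 3 and persistent anti-CD40 replicate 1 or 3.

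The core and regulatory particles were then read array by array against the no-antigen PBS array of the same number, so all differences of a number share 1 array as their base. Over the core subunits the median was 0.77, 1.29 and 0.81 in replicates 1, 2 and 3 of persistent antigen with anti-CD40 and 0.80, 1.01 and 0.75 with PBS. Over the regulatory subunits it was 0.72, 0.93 and 0.90 with anti-CD40 and 0.91, 0.45 and 0.73 with PBS. The core thus lay higher on replicates 1 and 2 with anti-CD40 and on replicates 2 and 3 with PBS. Under transient antigen the core medians were 0.90 and 1.09 with anti-CD40 and 0.17, 0.62 and 0.30 with PBS. The regulatory medians were 1.09 and 0.75 with anti-CD40 and 0.02, 0.12 and 0.21 with PBS, so that the core lay higher on all 3 PBS arrays and on replicate 2 with anti-CD40. Without antigen the core medians were 0.11 and −0.04 and the regulatory medians 0.01 and −0.31 with anti-CD40. The medians over all genes stayed between −0.06 and 0.05 on every array.

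**Figure D5:**
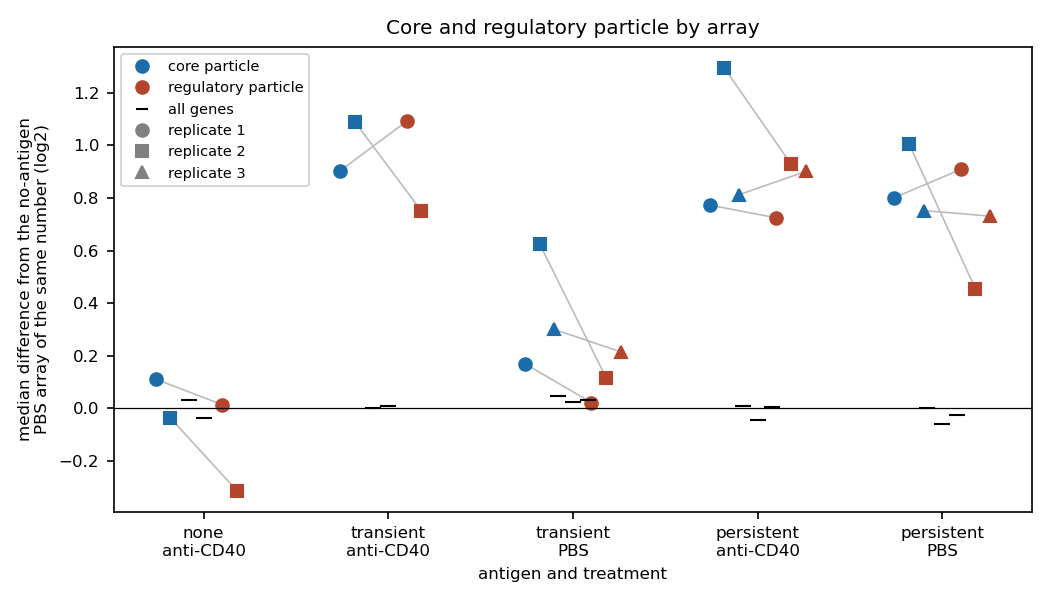
Each symbol is the median log2 difference over the 14 core (blue) or 17 regulatory (red) subunits on 1 array from the no-antigen PBS array of the same replicate number, with a grey line joining the particles of an array and a black dash for the median over all genes. Both particles lie between 0.45 and 1.29 under persistent antigen and under transient antigen with anti-CD40, and between 0.02 and 0.62 under transient antigen with PBS.

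Genes that serve the proteasome were read beside its subunits. The immunoproteasome subunits Psmb8, Psmb9 and Psmb10 replace the catalytic ones in immune cells, and 1 of 3 rose under persistent against no antigen with PBS with the block. That was Psmb9, at 0.70 ± 0.22 (adjusted p = 0.037), named after its value was seen. Its levels were 9.59, 8.73 and 9.63 under persistent antigen, against 9.01, 7.62 and 9.22 without antigen, and the groups overlapped. Of the core assembly chaperones 2 of 5 rose in the same comparison. Pomp, which matures the beta rings, stood at 9.72, 9.69 and 9.50 under persistent antigen, against 8.59, 8.09 and 8.38 without antigen. It was called without the block (1.29 ± 0.24, adjusted p = 0.0080) as well as with it. Of 10 measured associated proteins and ubiquitin receptors 4 rose with the block, led by Uchl5, a deubiquitinase of the regulatory particle, at 1.38 ± 0.22 (adjusted p = 0.00016), and Rad23b, a shuttle for tagged proteins, at 0.94 ± 0.16 (adjusted p = 0.00025). Of the 4 measured activator and inhibitor genes 2 rose, and of 6 p97 genes, which pull tagged proteins out of complexes, 2 rose. Of all genes 9.93% were called higher in this comparison with the block and 6.79% lower. Of the 6 measured genes of transcriptional control 2 rose and 1 fell with the block. Ngly1, the glycanase that processes NFE2L1, rose by 1.11 ± 0.20 (adjusted p = 0.00037). Nfe2l1 itself fell, by 0.54 ± 0.15 on the log2 scale (adjusted p = 0.015 with the block), and was named after its value was seen. Uba6, an enzyme that activates ubiquitin, was called in no comparison.

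In the other comparisons the same lists gave the following counts with the block. Under transient against no antigen with PBS Pomp alone was called among them, at 0.71 ± 0.19 (adjusted p = 0.046), where 2.02% of all genes were called higher. Under persistent against transient antigen with PBS 2 of the 4 activator and inhibitor genes, 2 of 10 associated proteins, 2 of 6 p97 genes and 1 of 5 core assembly chaperones rose, where 5.99% of all genes did. Of the 6 genes of transcriptional control 2 rose and 1 fell there, where 5.44% of all genes fell, and the one that fell was Nfe2l1, at −0.51 ± 0.15. The largest values there were those of Uchl5 (1.48 ± 0.22), Psme3 (0.82 ± 0.18), Ngly1 (0.72 ± 0.20) and Mafg (0.71 ± 0.19), a partner of NFE2L1 on DNA. With anti-CD40 the core assembly chaperones rose in 3 of 5 for transient and 3 of 5 for persistent antigen, the associated proteins in 4 and 5 of 10 and the p97 genes in 3 and 4 of 6. The activator and inhibitor genes rose in 1 and 2 of 4 and those of transcriptional control in 1 and 2 of 6. Of all genes 10.5% were called higher for transient and 10.9% for persistent antigen. The largest values for transient antigen were those of Uchl5 (1.74 ± 0.27), Psme3 (1.48 ± 0.22), Pomp (1.32 ± 0.23) and Vcp (1.30 ± 0.25). For persistent antigen they were those of Uchl5 (1.76 ± 0.26), Pomp (1.40 ± 0.22), Ngly1 (1.37 ± 0.22) and Psme3 (1.22 ± 0.21), and Pomp and Psme3 were called there without the block too (adjusted p = 0.020 and 0.031). For anti-CD40 against PBS under transient antigen 2 of 5 core assembly chaperones, 3 of 10 associated proteins, 2 of the 4 activator and inhibitor genes, 2 of 6 p97 genes and 1 of 6 genes of transcriptional control rose, where 7.59% of all genes did. Uchl5 rose by 1.77 ± 0.26, Psme3, a nuclear activator of the core, by 1.38 ± 0.21, the thioredoxin-like Txnl1 by 1.01 ± 0.19 and the chaperone Psmg2 by 0.95 ± 0.17. No immunoproteasome gene was called in these comparisons, where their medians were 0.47 for transient against no antigen, 0.52 for persistent against no antigen and 0.13 for anti-CD40 against PBS under transient antigen.

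Other probe sets of the same genes were read as a check of the chosen ones. In 20 of the 37 genes there were 39 further probe sets, 25 of them above the median probe set. For persistent against no antigen with PBS 26 of the 39, and 20 of those 25, had the sign of the chosen probe set, and with the block 8 were called the same way and 1 the opposite way. Among the 12 members not called on their chosen probe set in this comparison, 5 had another probe set that rose with the block, and these were singled out after their values were seen: the lid subunits Psmd6 and Psmd11 given above, Psma6 at 0.96 ± 0.19, Psmc2 at 0.66 ± 0.15 and Psmc3ip at 1.27 ± 0.16. The opposite call was a second probe set of Psma5 with a mean of 3.34, below the median probe set. The remaining further probe sets with a sign opposite to the chosen one, some of them above the median probe set, are not named here. For anti-CD40 against PBS under transient antigen these counts were 27 of 39 and 19 of 25, with 9 called the same way and 0 the opposite way. With anti-CD40 they were 27 of 39 and 21 of 25 for transient against no antigen, with 12 called the same way. For persistent against no antigen with anti-CD40 they were 23 of 39 and 19 of 25, with 11 called the same way. For persistent against transient antigen with PBS they were 24 of 39 and 17 of 25, with 4 called the same way. In the same order 9.93%, 7.59%, 10.5%, 10.9% and 5.99% of all genes, read from 1 probe set each, were called higher with the block. How often further probe sets of other genes were called or shared a sign is not given here, so these counts are no test.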

How the data were processed

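RNA of sorted AND T cells was measured on 16 Affymetrix mouse arrays with 45101 probe sets. Per the labels' protocols it was extracted with Trizol and labelled with biotin after 2 rounds of amplification. The deposited intensity values were made by the authors with RMA, per the submitters' processing notes, and a version is not given in the sources used here. They were read as linear because their maxima exceed any log2 value. Here log2(intensity + 1) was taken without normalizing again, which shrinks differences of dim genes. The number of arrays limits the precision.

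Names came from the platform's annotation. The 34945 probe sets with 1 symbol gave 18193 genes, while 932 probe sets with several symbols and 64 control probe sets were left out. Groups were taken from the labels. Differences came from limma 3.58.1 in R 4.3.3 (group means of all 16 arrays, eBayes with an intensity trend, Benjamini-Hochberg adjustment over all genes), without and with the replicate number as a block. The labels number the replicates without saying what a number shares. The check rested on the data, on pairs of arrays from different groups. Deviations from the group means of arrays with the same number correlated at 0.48 to 0.81 (36 pairs). Those of arrays with different numbers had a median of −0.53 and a range of −0.81 to 0.60 (70 pairs), so the ranges overlapped. Deviations cancel within each group and mirror each other in groups of 2 arrays, so these negative values are in part built in and are no separate evidence. Outside its own group, each of the 16 arrays correlated best with an array of its own number. The blocked values are therefore given beside the others, and the interaction is the difference between 2 effects in the same fit.

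No pair of arrays was identical, with correlations within groups of at most 0.987. Data were simulated for persistent against no antigen with PBS, with 200 of 18193 genes changed. Limma recovered 0% of log2 changes of 0.5 without and 13.5% with the block. It recovered 35.5% and 82% of changes of 1, and 80% and 98.5% of changes of 2. Unchanged genes called numbered 0, 0 and 1 without the block and 2, 13 and 15 with it. The simulated arrays took their replicate effects and residual SD from the blocked fit. The gain from the block was thus built in, and the simulation cannot tell which fit suits the real arrays. The members, the lists and the tests were chosen with earlier results of these data known. Values in every array are given for Psmb5, Psmb6, Psmb7, Psmd4, Psmd14 and up to 4 called members with the largest difference per comparison in either fit. Where none was called, the 2 smallest p-values are named. Of the related lists at most 4 called genes are named per comparison, and Psmb9 and Nfe2l1 were added after their values were seen.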

Additional observations from a re-analysis of the deposited data

Results flagged for a closer look

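These 6 results stand out because the effect of anti-CD40 differed between antigen regimes by a test of the difference itself, in limma with the replicate block. Between transient and no antigen the effect of anti-CD40 differed by 1.35 ± 0.24 for Psmd1 (adjusted p = 0.0049), 1.30 ± 0.29 for Psmd7 (0.018), 1.26 ± 0.27 for Psmc3 (0.013), 1.14 ± 0.27 for Psmc1 (0.026) and 0.97 ± 0.26 for Psma5 (0.046). For Psmd1 the effect was 1.22 ± 0.17 under transient antigen and −0.12 ± 0.17 without antigen. Between persistent and transient antigen it differed by −0.96 ± 0.23 for Psmd1 (adjusted p = 0.039), with 0.27 ± 0.15 under persistent antigen. The mean of Psmd7 lay below the median probe set in every group other than transient antigen with anti-CD40, so its value is not exact. None of the 6 was called without the block, where the adjusted p was 0.75 or higher. With the block the test between transient and no antigen called 5 of 37 members (13.5%), where 3.09% of all genes were called higher. The test between persistent and transient antigen called 1 of 37 (2.7%), near the 1.52% of all genes called lower. These calls changed when single arrays were left out, as given above.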

How the results depend on the processing

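Counts of members called were recomputed under other settings, and each is followed in parentheses by the share of all genes called under the same setting. Settings that combine the block with another choice or keep 2 replicate numbers were chosen after seeing the data. With the replicate block the counts were 25 (16.7%) for persistent against no antigen with PBS, 11 (11.4%) for persistent against transient antigen with PBS, 28 (14%) for transient and 28 (16.4%) for persistent against no antigen with anti-CD40, 16 (10.5%) for anti-CD40 against PBS under transient antigen and 5 (3.69%) and 1 (1.79%) for the interactions of transient and persistent antigen. The block changed no other count. A block for the 4 runs of consecutive array numbers in the labels gave 21 (15.6%), 18 (13.2%), 23 (12.2%), 22 (13.9%), 21 (12.1%), 7 (5.14%) and 2 (2.63%) in the same order. Without the block, persistent against no antigen with PBS, at 3 (3.57%), gave 16 (12.9%) with array weights, 6 (4.3%) without the intensity trend, 5 (5.27%) with cyclic loess, 0 (2.05%) with the compared groups alone, 0 (0.616%) with replicates 1 and 2 and 13 (7.45%) with replicates 1 and 3. Persistent against transient antigen with PBS, at 0 (0.929%), gave 17 (21.6%) with array weights. Transient against no antigen with anti-CD40, at 0 (0.572%), gave 4 (1.18%) without the trend, 1 (1.28%) with cyclic loess, 2 (1.03%) with the mean of probe sets and 2 (1.77%) with dim genes left out. Persistent against no antigen with anti-CD40, at 3 (2.37%), gave 1 (1.37%) with array weights, 7 (3.21%) without the trend, 5 (3.68%) with cyclic loess, 7 (5.22%) with dim genes left out, 0 (0.0055%) with the compared groups alone, 0 (0.33%) with replicates 1 and 2 and 0 (1.68%) with replicates 1 and 3. Anti-CD40 against PBS under transient antigen, at 0 (0.638%), gave 1 (1.77%) with cyclic loess and 2 (4.57%) with replicates 1 and 3. With the block, transient against no antigen with PBS, at 0 (2.89%), gave 5 (8.13%) with array weights, 1 (3.23%) without the trend, 1 (2.46%) with the mean of probe sets and 2 (5.93%) with dim genes left out. Persistent against transient antigen with PBS gave 17 (15.5%) with array weights, 18 (13.2%) with the compared groups alone and 5 (5.29%) with replicates 1 and 2. The interaction of transient antigen gave 2 (1.53%) with replicates 1 and 2. That of persistent antigen gave 6 (4.89%) with array weights, 2 (2.25%) with cyclic loess, 2 (2.87%) with the compared groups alone and 0 (0.159%) with replicates 1 and 2.

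Leaving out each array in turn without the block gave 0 to 2 (1.68 to 3.02%) for persistent against no antigen with PBS, 0 to 7 (0 to 1.98%) for transient and 0 to 12 (0.0989 to 4.16%) for persistent against no antigen with anti-CD40, 0 to 1 (0 to 0.813%) for anti-CD40 against PBS under transient antigen and 0 in the other comparisons. With the block it gave 20 to 23 (12.8 to 14.7%) for persistent against no antigen and 3 to 11 (6.95 to 9.01%) for persistent against transient antigen with PBS, 8 to 30 (5.86 to 13.8%) for transient and 13 to 29 (8.03 to 15.7%) for persistent against no antigen with anti-CD40, and 3 to 12 (3.04 to 8.9%) for anti-CD40 against PBS under transient antigen. It gave 1 to 12 (0.544 to 4.83%) and 0 to 2 (0.17 to 2.47%) for the interactions of transient and persistent antigen and 0 in the others. Where a group kept 1 array, that array was assumed to vary like the other groups. Of single members the 114 pairs of member and comparison called in either fit were followed without the block, and 4 values changed sign. Psmb7 under transient antigen turned to −0.00363 for anti-CD40 against PBS with array weights and to −0.40 without transient anti-CD40 replicate 1 (−0.40 to 2.11 over the arrays left out in turn). Against no antigen with anti-CD40 it turned to −0.10 without no-antigen anti-CD40 replicate 2 (−0.10 to 2.78). Psmd10 turned to −0.013 for persistent against no antigen with anti-CD40 without no-antigen anti-CD40 replicate 2 (−0.013 to 1.14). The causes were not tested. The members' median kept its sign in each comparison under all settings run, other than for persistent against transient antigen with anti-CD40 and anti-CD40 against PBS without antigen.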

Other observations

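Levels of some members followed the replicate number more than the condition. Replicate 2 minus replicate 1 of Psmb7 was −2.59 on average over the 6 groups, and its residual SD was 0.207 with the block and 1.48 without it. For Psma2 the same SD was 0.167 with the block and 0.162 without it, and its difference of replicate 2 from replicate 1 was −0.12. Over all 18193 genes the median difference of replicate 2 from replicate 1 was 0.01.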
